A study of Mus musculus with 9 samples.

Results

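In the chromatin of mouse lung endothelial cells, 21642 regions were wide, carried a called region of H3K14 acetylation (H3K14ac) and of no other mark profiled, and lay outside genes. They were chosen by their peak calls, out of 578465 regions of the H3K14ac list and 1309635 regions of 8 lists in all. The list was named by its densest library: H3K14ac reached 13.4 CPM per kb in it (counts scaled to the library's table total), 2.19 times the next library. A member is wider than the smallest width of the H3K14ac list, at which 80.9% of its regions were called (called minimum width here), shares no base with a region of the 7 other lists, and lies more than 2 kb from every gene of the RefSeq table of GRCm38.p6, the build of all positions given here. Because measured H3K14ac calls selected the members, their H3K14ac reads are given as a description, and so are their reads of the other marks, whose absence from the lists was also required.

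The study profiled H3K9ac, H3K14ac, H3K18ac, H3K23ac, H3K27ac, H4K8ac, H2AK5ac and H3K4me3, with IgG as the control antibody, in lung endothelial cells isolated from wild-type (WT) mice. ACT-seq was used: antibody-bound Protein A/G-Tn5 transposase cuts and tags DNA next to the mark. The series title concerns cystine import and catabolism as a fuel for histone acetylation at endothelial loci. Each target had 1 library, the labels give no treatment, age or sex, and all 9 libraries came from the same kind of cell, so no value has a replicate error and no test between libraries was possible.

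Acetylation of histone tails loosens the contact between histones and DNA and is read by proteins with bromodomains. H3K14ac is laid down by the acetyltransferases KAT2A and KAT2B and by KAT6 and KAT7 complexes, whereas H3K27ac, made by EP300 and CREBBP, is widely used to mark active enhancers and promoters, and H3K4me3 marks promoters. Regions far from genes that carry acetylation include enhancers, which can act on promoters at a distance.

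Library depth in the deposited count table ran from 365999 reads for IgG to 10044130 for H3K14ac, with 1477463 to 4803692 for the other marks. Counts could be read only for the 14842 members (68.6%) whose identifier holds a single region; none of these lies on chromosomes 1 or 10 to 13, and chromosome 14 is covered in part. Each mate of a read pair was counted separately, and 66.7% of the nonzero H3K14ac counts in members were even, so intervals below treat reads as more independent than they are. Intervals are exact at 95% and cover counting error only. Endothelial origin was checked at gene ends: 26 of 30 endothelial marker genes had an H3K4me3 region within 2 kb of a gene end, against 7 of 16 markers of lung epithelium, 7 of 12 of leukocytes, 4 of 10 of mesenchyme and 61.8% of all protein-coding genes. H3K4me3 thus also lay at some markers of other lung cells, whose part in the results was not tested.

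Of the 570364 H3K14ac regions on chromosomes 1 to 19, X and Y, 109190 (19.1%) were wide. Wide regions overlapped another list more often than those of minimum width: 47184 of the 109190 (43.2%) touched no other list, against 88.2% of the 461174 regions of minimum width. A wider region has more bases with which to overlap. The gene rule then left the 21642 members, 45.9% of the 47184. They make up 57.6% of the 37589 wide H3K14ac regions outside genes. The other 15947 overlapped another list, most often H3K18ac (13371 regions), H3K27ac (12738) and H4K8ac (11283), with many regions on several lists. The H3K9ac list overlapped 3829 and the H3K4me3 list 3489, of which 75 and 126 overlapped that list alone.

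Members were small regions. Their width was 240 bp at the median, 187 to 299 bp in the middle of the distribution (quartiles) and 852 bp at most, and together they covered 5.38 Mb. Member numbers declined slowly with width and then dropped at 350 bp: 1252 members were 140 to 149 bp wide, 762 members were 340 to 349 bp wide, 236 were 350 to 359 bp and 145 were 360 to 369 bp. Only 1483 members (6.85%) reached 350 bp, 192 reached 500 bp and 0 reached 1000 bp. The 25542 wide H3K14ac-only regions in or near genes had nearly the same widths, with a median of 238 bp and 6.94% at 350 bp or more. The 15947 wide regions outside genes on another list were wider, with a median of 277 bp and 27.4% at 350 bp or more. Near the threshold, 151 members were 139 bp wide, 1 bp above the minimum, and 188349 regions outside genes and on no other list were of minimum width. The first members just inside it in genome order were chr1:5980705-5980843, chr1:11345253-11345391 and chr1:23053441-23053579, and the first regions just outside it, which are not members, were chr1:3007431-3007568, chr1:3008239-3008376 and chr1:3011051-3011188. No read count can be assigned to these 6, since their identifiers hold several regions.

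**Figure D1:**
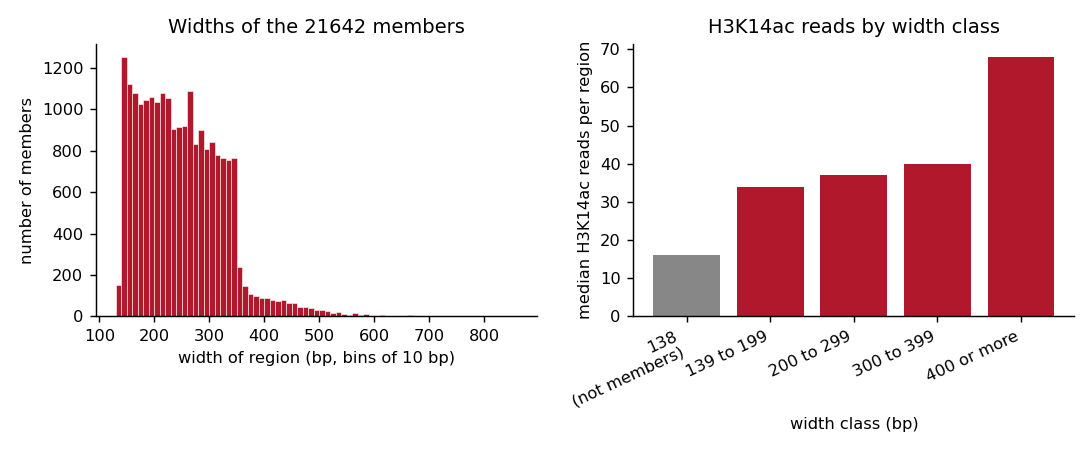
Left, number of members per 10 bp of width. Right, median H3K14ac reads per region by width class, for regions of minimum width (grey, not members) and members (red). The members' widths drop at 350 bp, and the median rises from 16 reads at minimum width to 34 in members under 200 bp and 68 at 400 bp or more.

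H3K14ac reads per member were 38 at the median, 27 and 51 at the quartiles and 208 at most. Regions of minimum width outside genes had a median of 16 reads, so the jump at the threshold was larger than the gain in width: members of 139 to 149 bp already had 31. From there the count rose slowly, to 37 reads at 200 to 299 bp, 40 at 300 to 399 bp and 68 at 400 bp or more. Per kb of region, the median was 116 reads at minimum width, 216 at 139 to 149 bp, 150 at 200 to 299 bp and 144 at 400 bp or more. Counting a read in full when it touches a region would raise the reads per kb of narrow regions more than that of wide ones. How reads touching several identifiers were counted is not known. The highest class by total reads was thus not the densest, and the narrowest members were.

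Some members had no H3K14ac read at all: 262 of 14842 (1.77%, interval 1.56 to 1.99%), although each is a region of the H3K14ac list. Of these, 234 had no read in any library, and their median width was 224 bp. The share with 0 reads was 4.08% at minimum width outside genes and 1.94% in wide H3K14ac-only regions in or near genes. On the X chromosome it was 7.00% of members, and on the autosomes 1.58%. The cause of the 0 counts was not tested.

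Against IgG, 14458 of the 14842 members (97.4%) were called higher for H3K14ac, with CPM at least 2-fold higher and at least 10 reads over both libraries. The same rule called 67.1% of the 398126 identifiers that hold 1 chromosomal region, 78.5% of minimum-width regions outside genes and 97.2% of wide H3K14ac-only regions in or near genes. H3K14ac reads chose the members, so the difference from the background is read no further. IgG is also shallow: 3 reads, the limit that a count of 0 allows, are 8.197 CPM, and the median member had 3.78 H3K14ac CPM. Only 486 members (3.27%) had H3K14ac above that limit, so for a single member the excess over IgG was mostly not resolved at this depth, and with 0 IgG reads the call amounts to having about 10 H3K14ac reads, as 14474 members did.

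Summed over members the contrast was clearer, but its size turned on a few places and on the scaling. H3K14ac had 16.2 CPM per kb and IgG 4.37, a ratio of 3.71. Of the 5900 IgG reads in members, 5817 (98.6%) lay in 8 members. Without those 8, IgG had 83 reads in all, 0.0615 CPM per kb, and the ratio was 264. That value still scales IgG to its full table total of 365999 reads, which includes the reads left out. With all members kept, the ratio was 138.14 with edgeR's TMM library sizes and 19.94 with DESeq2's size factors. H3K14ac thus exceeded IgG under each scaling, but the size of the excess is not settled. Only 17 members (0.115%) had any IgG read, against 0.156% of all identifiers. The most IgG reads fell in chr9:11847149-11847369 (221 bp, 319 kb from the nearest gene, between Cntn5 and Jrkl), which had 2457 IgG reads, 52 of H3K14ac, 2 of H2AK5ac and 0 in the 6 other libraries. Next were chr9:78320466-78320650, between Omt2a and Omt2b, with 1305 IgG and 27 H3K14ac reads, and chr3:48098981-48099324, between the distant genes Pabpc4l and Pcdh18, with 536 IgG and 44 H3K14ac reads. In these 3 members IgG exceeded H3K14ac even before scaling, while the H3K14ac counts were ordinary for a member.

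The other marks left reads in members although no region of theirs was called there. H3K27ac came first, with 5.27 CPM per kb and at least 1 read in 67.6% of members (66.9 to 68.4%), at a median of 2 reads. An H3K27ac read also lay in 59.2% of all identifiers, which include regions on other lists and identifiers holding several regions. The share was 42.4% in the narrower minimum-width regions outside genes and 75.7% in wide H3K14ac-only regions in or near genes. Having an H3K27ac read was thus not particular to members. H3K18ac followed with 1.73 CPM per kb and a read in 14.9% of members, and H4K8ac with 0.536 CPM per kb and 5.05%. Both shares were below those of all identifiers, 27.5% for H3K18ac and 22.97% for H4K8ac. The rest were sparse: H3K4me3 had a read in 2.01% of members, H3K23ac in 1.08%, H2AK5ac in 0.620% and H3K9ac in 0.323%. Over all identifiers these shares were 11.2%, 10.5%, 5.39% and 4.56%, in the same order. H3K23ac and H2AK5ac were sparse here despite being the deepest libraries after H3K14ac. In 4360 members (29.4%) there was no read of any of these 7 marks. Shares with a read follow depth, so libraries are better compared by scaled values, which in turn depend on the scaling. With table totals, H3K14ac stood 3.08 times above H3K27ac, 9.36 times above H3K18ac and 30.2 times above H4K8ac. With edgeR's TMM library sizes the ratios were 3.14, 22.8 and 90.9, and with DESeq2's size factors 2.49, 12.6 and 45.9, so the order of these 3 held while the size moved by over 1.5 times for H4K8ac under both and for H3K18ac under TMM.

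**Figure D2:**
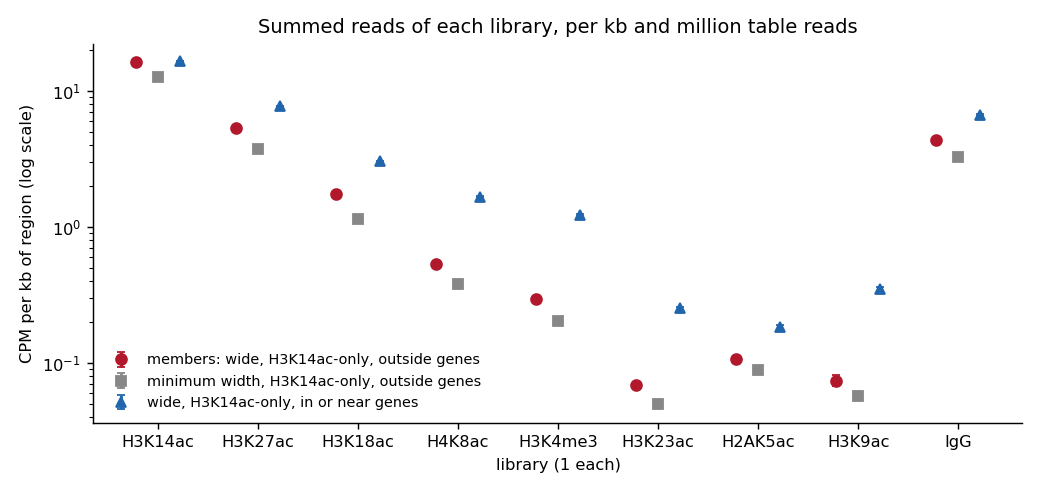
CPM per kb of region in each of the 9 libraries (log scale) for members, for minimum-width H3K14ac-only regions outside genes and for wide H3K14ac-only regions in or near genes; bars are exact Poisson intervals, mostly smaller than the points. Members and genic regions sit together for H3K14ac (16.2 and 16.4) and apart for H3K4me3 (0.295 and 1.22) and H3K9ac (0.0744 and 0.350). The members' H3K9ac, H3K23ac and H3K4me3 points hold 60.4%, 39.7% and 23.9% of their reads in 1 region, and the IgG points rest on 8, 14 and 7 regions of over 100 IgG reads.

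Wide H3K14ac-only regions in or near genes matched members in H3K14ac (16.4 against 16.2 CPM per kb) but held more of every other mark. The ratio of genic to member values was 1.46 for H3K27ac, 1.74 for H3K18ac, 1.73 for H2AK5ac, 3.10 for H4K8ac, 3.67 for H3K23ac, 4.14 for H3K4me3 and 4.71 for H3K9ac. For the IgG control the ratio was 1.52. Without regions of over 100 IgG reads, IgG had 0.0595 CPM per kb in the genic regions and 0.0615 in members. The sparse marks turn on 1 member, chr15:85674242-85674571, which held 60.4% of the H3K9ac, 39.7% of the H3K23ac and 23.9% of the H3K4me3 reads of all members. With the region of most reads of each mark left out of each set, the genic to member ratio was 10.8 for H3K9ac, 5.48 for H3K23ac, 5.25 for H3K4me3, 3.19 for H4K8ac and 1.91 for H2AK5ac, and 1.46 for H3K27ac and 1.75 for H3K18ac. Members exceeded minimum-width regions outside genes 1.28 times in H3K14ac, 1.42 times in H3K27ac, 1.51 times in H3K18ac and 1.42 times in H4K8ac. In IgG they did so 1.34 times, but had 0.0615 against 0.108 CPM per kb without regions of over 100 IgG reads. The ratios of the sparse marks, 1.44 for H3K4me3, 1.37 for H3K23ac, 1.30 for H3K9ac and 1.20 for H2AK5ac, became 1.12, 0.862, 0.591 and 1.07 without the region of most reads in each set, so the direction for H3K23ac and H3K9ac rests on that member. Called over IgG by the same rule, H3K27ac was higher in 1237 members (8.33%), against 3.49% of all identifiers tested, 1.38% of the minimum-width regions and 15.002% of wide genic ones. H3K18ac was higher in 193 members (1.30%), against a background of 0.964%. Members are wider than most regions tested, and a count of at least 10 reads is easier to reach in a wide region. The background also holds regions that overlap other lists, and how reads touching several identifiers were counted is not known. An H3K14ac read lay in 83.8% of all identifiers, against 98.2% of members. The background shares are therefore no measure of H3K27ac or H3K18ac in H3K14ac regions in general.

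H3K27ac and H3K18ac reads in members fell with distance from the called regions of those marks. Within 1 kb of an H3K27ac region, 86.2% of members (84.0 to 88.2%) had an H3K27ac read, at 10.2 CPM per kb. At 20 to 100 kb the share was 63.5%, and in the 1872 members 100 kb or more away it was still 48.2% (45.9 to 50.5%), at 2.70 CPM per kb. For H3K18ac the share went from 34.9% within 1 kb of an H3K18ac region to 10.9% at 5 to 20 kb and 2.29% (0.992 to 4.45%) at 100 kb or more. Over the same H3K27ac classes the median of H3K14ac went only from 41 to 36 reads. A low level of H3K27ac reads thus lay in members far from any H3K27ac region, whereas few members far from any H3K18ac region had an H3K18ac read. At minimum width the H3K27ac values were 9.61 CPM per kb within 1 kb and 1.47 at 100 kb or more, so the fall with distance was not particular to members.

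**Figure D3:**
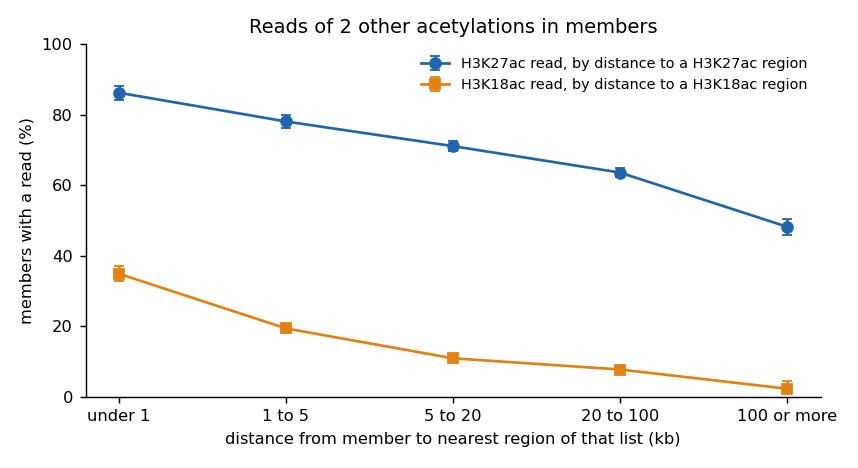
Share of members with at least 1 H3K27ac or H3K18ac read, by distance to the nearest called region of that mark, with exact binomial 95% intervals. The H3K27ac share falls from 86.2% to 48.2% and the H3K18ac share from 34.9% to 2.29%.

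Few members carried many reads of other marks. In 63 members the 7 other marks had 50 or more reads together, and 53 of these (84.1%) lay within 1 kb of a region of another list, against 22.5% of all members with a readable count. The 3 highest were picked after their values were seen. The member chr15:85674242-85674571, between Wnt7b and Ppara and 29.2 kb from the noncoding gene Lncppara, had 485 H3K23ac, 384 H3K4me3, 270 H3K9ac, 133 H4K8ac, 132 H3K14ac, 116 H3K27ac, 42 H3K18ac, 0 H2AK5ac and 0 IgG reads, with the nearest region of another list 1.255 kb away. The member chr5:105263721-105264058, between the guanylate-binding protein genes Gbp10 and Gbp6, had 249 H2AK5ac reads beside 71 of H3K14ac and 10 of H3K27ac, and 0 of the other libraries. A region of another list lay 0.071 kb from it. The member chr9:65545704-65546008, between Ankdd1a and Plekho2, had 110 H3K14ac, 108 H4K8ac, 65 H3K18ac, 50 H3K27ac, 22 H2AK5ac and 16 IgG reads, with a region of another list 0.318 kb away. These members went against the label of H3K14ac alone in their reads, although no list other than H3K14ac names them. Whether their reads belong to the called regions nearby was not tested.

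The widest members with readable counts had more H3K14ac than H3K27ac reads before scaling. The H3K14ac library was deeper (10044130 against 2533242 reads), so the unscaled counts given here and below for single regions do not rank the marks. The widest, chr2:171814775-171815626 (852 bp), lay 17.2 kb from the nearest gene, with Dok5 and Cbln4 as the flanking protein-coding genes, and had 65 H3K14ac and 17 H3K27ac reads. The second, chr10:54915091-54915925 (835 bp, between Man1a and Tbc1d32), has no readable count. The member chr17:9736915-9737708 (794 bp, between Pabpc6 and the RNA-binding protein gene Qk) had 114 H3K14ac and 20 H3K27ac reads, and chr2:65795841-65796629 (789 bp, 28.4 kb from the sodium channel gene Scn2a) had 58 and 2. The member chr2:25483038-25483787 (750 bp, between the prostaglandin D synthase gene Ptgds and Lcn12) had 88 and 7. Of the 5 that follow, at 703 to 749 bp, H3K14ac ran from 47 reads at chr18:15852092-15852840, between Chst9 and the N-cadherin gene Cdh2, to 196 at chr2:7952454-7953202. The member chr18:55803233-55803947 (between Zfp608 and Gramd3) had 121 H3K14ac and 14 H3K27ac reads, and chr6:26534653-26535355 (between Pot1a and the glutamate receptor gene Grm8) had 90 and 5. Across the 9 of the 10 widest with readable counts, IgG had 0 reads and H3K18ac had reads only in chr16:85640108-85640832 (725 bp, between Cyyr1 and Adamts1), with 4.

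By H3K14ac reads, chr3:66694094-66694663 (570 bp) came first with 208. It lay 131 kb from the nearest gene, with Veph1 and Shox2 as flanking protein-coding genes, and had 8 H3K27ac reads and 0 in the 7 other libraries. The member chr2:7952454-7953202 (749 bp) was second with 196, at 194 kb from the nearest gene and between Celf2 and Gata3, a zinc-finger transcription factor gene, with 17 H3K27ac reads. The member chr18:73537842-73538160 (319 bp, between Dcc and Mex3c), had 194 H3K14ac reads with 35 of H3K18ac, 30 of H4K8ac, 23 of H3K27ac, 10 of H2AK5ac and 5 of H3K4me3. The fourth, chr2:142533612-142534199 (between Macrod2 and Kif16b), had 191 H3K14ac and 18 H3K27ac reads, and the fifth, chr6:50038503-50039131 (between the neuropeptide Y gene Npy and Mpp6), had 185 with 48 of H3K27ac, 23 of H3K18ac and 22 of H4K8ac. Members of like H3K14ac therefore differed in whether H3K18ac and H4K8ac came with it.

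Per kb the leaders were narrow. The member chr18:9487265-9487421 (157 bp, between Ccny and Cetn1) had 949 H3K14ac reads per kb, from 149 reads, with 81 of H3K18ac, 66 of H4K8ac, 41 of H3K27ac and 18 of H3K9ac, and a region of another list lay 0.155 kb away. The next, chr4:105584194-105584355 (162 bp, between the lipid phosphatase gene Plpp3 and Usp24), had 759 reads per kb and 7 H3K27ac reads. The others were chr19:57497275-57497414 near Trub1 (721), chr3:40215713-40215885 between Fat4 and Intu (705) and chr4:12657957-12658147 between Cibar1 and Triqk (670). The member between Fat4 and Intu had 122 H3K14ac reads and 0 in all 8 other libraries.

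Members lay 25.5 kb from the nearest gene at the median (quartiles 10.5 and 57.2 kb), and minimum-width regions, which obey the same gene rule, 24.6 kb. To the nearest protein-coding gene the median was 95.7 kb, against 90.5 kb for minimum-width regions. A lncRNA gene was nearest for 37.7% of members, a pseudogene for 26.6% and a protein-coding gene for 26.5%. These kinds made up 25.5%, 19.9% and 43.9% of the genes used. Members were densest at an intermediate distance. There were 16.2 per Mb at 2 to 5 kb from a gene, 19.7 (19.2 to 20.2) at 20 to 50 kb, 12.7 at 100 to 200 kb and 7.83 at 200 to 500 kb. Only 12 members lay beyond 500 kb. The wide share of H3K14ac-only regions moved less, from 9.94% at 2 to 5 kb to 10.97% at 20 to 50 kb and 8.25% at 200 to 500 kb, and was 10.3% outside genes overall against 10.5% in or near genes. The farthest members were chr4:29904715-29905051 and chr4:30041425-30041671, 708 and 623 kb from any gene in the desert between Epha7 and Map3k7, with 52 and 40 H3K14ac reads, and chr5:47024479-47024724, 609 kb from any gene between Lcorl and Slit2, with 36. The first 2 had 0 reads of every other library and chr5:47024479-47024724 had 2 H3K27ac reads. H3K14ac reads changed little with distance up to 500 kb, with a median of 37 in members 2 to 5 kb from a gene and 39.5 in the 406 members at 200 to 500 kb, and the 12 beyond 500 kb had a median of 30 and 0 to 52 reads.

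**Figure D4:**
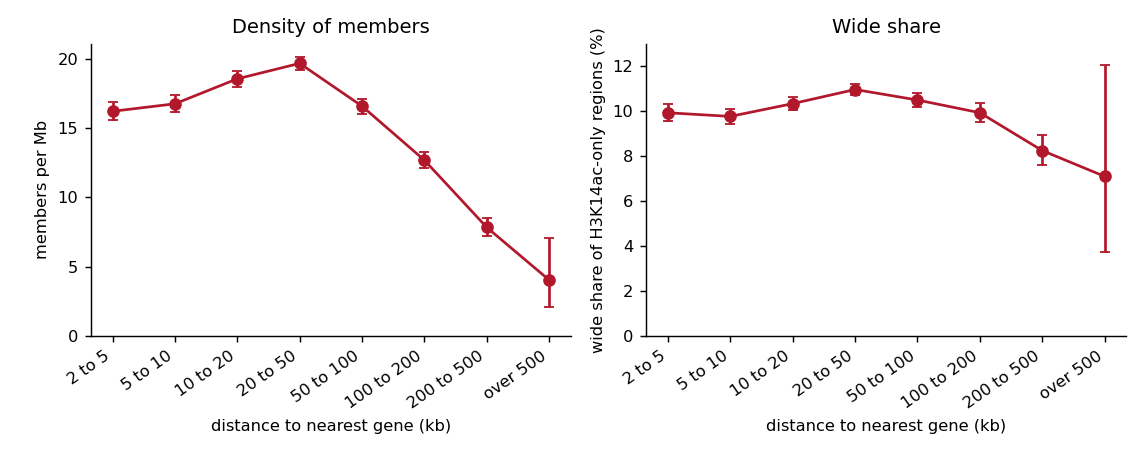
Members per Mb of sequence (left) and wide share of H3K14ac-only regions (right) by distance to the nearest gene, with exact 95% Poisson and binomial intervals. Density peaks at 19.7 per Mb at 20 to 50 kb and falls to 7.83 at 200 to 500 kb, while the wide share stays between 7.10% and 10.97%.

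By the size of the gap between genes, density was 16.3 per Mb in gaps under 50 kb, 20.7 in gaps of 100 to 200 kb and 4.18 in gaps over 1000 kb. The region nearest to a member was usually another H3K14ac region, at 1.005 kb at the median, against 1.31 kb for minimum-width regions. A region of any other list lay 3.93 kb away at the median, and 22.2% of members had one within 1 kb. Among the 7 other lists H3K18ac was nearest for 37.1% of members, H4K8ac for 18.4%, H3K23ac for 17.5% and H3K27ac for 11.6%. These lists differ in length (171339, 180263, 90317 and 114890 regions), which moves both distances and ranks. Median distances were 8.76 kb to H3K18ac, 14.8 kb to H4K8ac, 18.6 kb to H3K27ac, 41.8 kb to H3K4me3 and 72.6 kb to H3K9ac.

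Most members stood alone. With neighbours joined at gaps of 10 kb or less, 12044 members (55.7%) had no other member in reach, and 1153 runs held 3 or more. The longest run, chr7:64440286-64494183, held 16 members in 53.9 kb, 7.38 kb from Apba2, a neuronal adaptor protein gene, with 0 to 73 H3K14ac reads and a median of 29. The second, chr3:147256433-147298437, held 11 members in 42.0 kb between Ttll7 and Adgrl2, with 26 to 77 reads and a median of 43. The third, chr18:47395559-47441726, held 9 members in 46.2 kb on both sides of the gene Gm6883, 24.4 kb from the semaphorin gene Sema6a, with 18 to 56 reads and a median of 40. All members of the other two runs had H3K14ac reads, while the longest run included a member at 0.

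The sex chromosomes stood apart from the autosomes. Per Mb outside genes, members numbered 19.2 on the autosomes, 4.15 on X and 0.116 on Y, where there were 10. The wide share of H3K14ac-only regions outside genes was 5.81% (5.29 to 6.35%) on X and 10.5% (10.4 to 10.6%) on the autosomes, of which chromosome 6 was lowest with 9.27% and chromosome 14 highest with 11.3%. In or near genes the wide share was also lower on X, 6.13% against 10.6%. H3K14ac reads per member were closer, with medians of 34 on X, 25 over the 10 members on Y and 38 on the autosomes, and 14 and 16 at minimum width. The labels give no sex, so copy number of X and Y in these cells cannot be told apart from a difference in the mark.

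**Figure D5:**
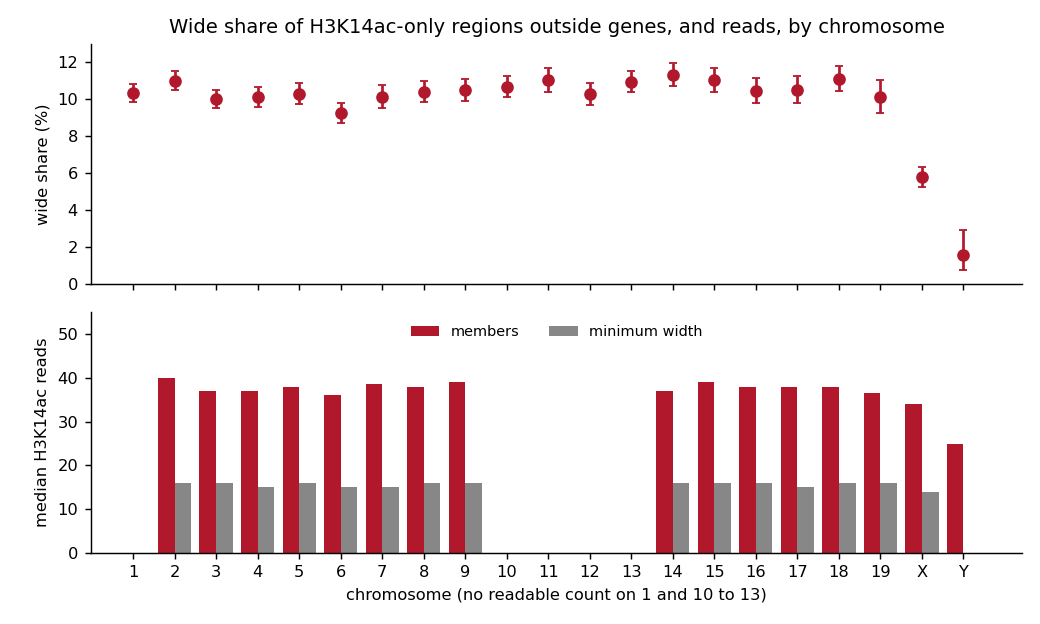
Top, wide share of H3K14ac-only regions outside genes on each chromosome, with exact binomial 95% intervals. Bottom, median H3K14ac reads per region for members (red) and for minimum-width regions (grey, at 0 on Y). Shares lie between 9.27% and 11.3% on the autosomes, at 5.81% on X and 1.62% on Y, while the medians for members run from 25 on Y (10 members) and 34 on X to 40 on chromosome 2.

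Each member was assigned to its nearest protein-coding gene, and 5228 of 21779 such genes (24.0%) had at least 1 member. Nearness is not evidence that a member acts on that gene, genes beside large gaps gather more members, and the intervals of the wide shares below treat regions at 1 gene as independent. The most members fell to Adgrl2, an adhesion G protein-coupled receptor gene (88 members, 15.04 to 1220 kb away), Khdrbs3, an RNA-binding protein gene (56), and Efnb2, the ephrin-B2 ligand of arterial endothelium (55, the nearest 3.11 kb away). Their members had median H3K14ac counts of 41.5, 42.5 and 39 reads, close to the 38 of all members.

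Among 30 endothelial genes, 14 had a member (46.7%), 79 members in all. Cdh5, the VE-cadherin gene, had 32, at 101 to 657 kb with a median of 37.5 H3K14ac reads. Klf4, a transcription factor responsive to blood flow, had 13, at 25.6 to 596 kb, and Ets1, a transcription factor of endothelial genes, had 8 with a median of 47 reads. Pecam1, Tek, Vwf and Nos3 had 0. Of the H3K14ac-only regions assigned to endothelial genes 11.4% (9.10 to 13.96%) were wide, a share whose interval includes the 10.3% of all genes.

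Epithelial markers had 4 members at 3 of 16 genes, among them Sftpd, a surfactant protein gene, with 2. Of 12 leukocyte genes only Ptprc, which encodes CD45, had members, with 18, and the wide share of the list was 14.2% (8.62 to 21.5%). Mesenchymal genes had 17 members at 4 of 10 genes, 7 of them at Pdgfra, a growth factor receptor gene, and 7 at Dcn, which encodes decorin, with a wide share of 11.97% (7.13 to 18.5%). The epithelial share was 6.35% (1.76 to 15.5%), and all 3 intervals include the share of endothelial genes. Neuronal adhesion and synapse genes, chosen because they border large gaps, had 233 members at 23 of 24 genes. The protocadherin gene Pcdh17 (40), the cadherin gene Cdh6 (28) and Pcdh7 (22) led. The wide share there was 6.70% (5.89 to 7.58%), below the 10.3% of all genes. Over all genes it was 8.39% in gaps of 500 to 1000 kb and 6.29% in gaps over 1000 kb, against 9.64% to 11.1% in smaller gaps. The part of gap size in the low share of this list was not tested. Developmental transcription factors had 149 members at 15 of 20 genes, led by Sox11 (53), Meis1 (31) and Zfhx4 (12), with a wide share of 11.7% (10.02 to 13.6%). Olfactory and vomeronasal receptor genes had 257 members at 191 of 1461 genes and a wide share of 7.30% (6.47 to 8.21%). A list of 12 acetylation genes, among them Kat2a, Kat2b, Kat6a, Kat7 and Brpf1 but also Ep300 and Crebbp, had 0 members. Only 18 regions of minimum width were assigned to these genes, 6 of them to Ep300 and 5 to Crebbp, so the exact interval reaches a share of 18.5%.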

How the data were processed

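The deposited values are read counts per region identifier in 9 ACT-seq libraries, 1 per target. Per the file headers, the authors counted with featureCounts 2.0.6 in paired-end mode, without strand and without joining mates. The submitters' processing notes name Trim Galore, STAR, MACS2, featureCounts, DESeq2, mm10 and GRCm38.p6. Peak and duplicate settings were not given in the sources used here, and the treatment of reads touching several identifiers is not known. The table joins 8 lists under shared identifiers. They were separated by genome order and commonest width, and named by their densest library. The separation was tested on simulated lists placed independently of each other, whereas the real lists share places, so that test does not give its accuracy here. Order or width was broken at 269 identifiers, and genome order alone assigned 6039 of the 1309635 regions differently. Starts were read as 0-based. Genes came from the RefSeq table of GRCm38.p6 (49603 genes); 340 entries before 3 Mb with scaffold positions, and 8101 H3K14ac regions on other sequences, were left out. CPM used table totals (prior count 2, scaled to library size). Python 3.11.15, pandas 2.3.3 and scipy 1.17.1 were used; edgeR 4.0.16 and DESeq2 1.42.0 gave alternative scalings. The members and gene lists were chosen with earlier results of these data known. Named regions are the 10 widest members, the 5 with most H3K14ac reads and the 5 with most per kb, the 3 with most IgG reads, the 3 farthest from genes, the 3 longest runs and 3 on either side of the width threshold; up to 3 genes with most members are named per list. Alternatives changed the gene set, flank, width, distance to other lists, separation, prior count, read minimum and scaling.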

Additional observations from a re-analysis of the deposited data

How the results depend on the processing

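With 1 library per target there is no replicate error, and the use of the control in peak calling is not known. The member count stayed within 1.5 times of 21642 when the gene set, flank, width, distance to other lists or separation was changed (14909 at 200 bp or more to 27856 with protein-coding genes only) and, in alternatives chosen after seeing the data, with each other list left unused (21717 to 22824). The number called over IgG ran from 10021 (counted only among members of 200 bp or more, a smaller set) to 14496 (no minimum of reads). In members of 200 bp or more, 69.8% had an H3K27ac read and 15.5% an H3K18ac read, against 67.6% and 14.9%. With protein-coding genes only, the median distance to a gene was 95.7 kb in place of 25.5 kb. Without the 8 members of over 100 IgG reads, also chosen after seeing the data, H3K14ac over IgG was 264 in place of 3.71. With all members kept, it was 138.14 with TMM library sizes and 19.94 with DESeq2's size factors. In alternatives also chosen after seeing the data, leaving out the region of most reads in each set turned the ratio of members to minimum-width regions to 0.862 for H3K23ac and 0.591 for H3K9ac, from 1.37 and 1.30, and TMM library sizes moved H3K14ac over H3K4me3 from 54.95 to 219. The alternatives on base composition, motifs and repeats were not run, because no genome was used here. No paired analysis was possible because each target had 1 library and no replicate numbers.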
